A study of Mus musculus with 9 samples.

Results

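The distal end of mouse chromosome 4 was followed through 9 RNA libraries of the initial segment of the epididymis, the first stretch of the duct that sperm enter after leaving the testis. Its members were all first-exon and last-exon events that start at 134 Mb or beyond on that chromosome, with the events of Cep85 and Pla2g5 left out. They numbered 1052 of 58235 such events in all, 655 first exons and 397 last exons, and lay in 330 loci and 297 annotated genes. An event is 1 first or last exon in the deposited tables, and its value is in FPKM, a read density scaled to exon length and library size.

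The groups were tKO (Mst1/2; Yap), dKO (Mst1/2) and WT, with 3 libraries each from mice aged 4 weeks and labelled C57BL/6. By these labels the tKO mice carried the Mst1/2 deletion of the dKO mice and a Yap deletion besides. The labels used here name no Cre line or promoter for the deletions and do not say whether each library was 1 animal, and a p-value here speaks only for the spread among them. Read depth is unknown, since the tables hold FPKM only, and fewer cells of a type cannot be told apart from less RNA per cell.

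Mst1 and Mst2 (genes Stk4 and Stk3) are kinases of the Hippo pathway that keep the coactivator Yap (gene Yap1) out of the nucleus. A gene altered by targeting can carry along a stretch of neighbouring DNA from the strain in which it was made, and the genes of such a stretch then differ between lines whether or not the deletion acts on them. Stk4 lies on chromosome 2, Stk3 on chromosome 15 and Yap1 on chromosome 9, none of them on chromosome 4. The tables hold no sequence variants, so whether distal chromosome 4 came from another strain in the tKO mice was not tested. What can be measured is whether RNA values differed more often there than elsewhere. The segment was selected on tKO values, those of Cep85 and Pla2g5, so the tKO values below are a description and carry no test. The comparison of dKO with WT libraries was not named in that choice and is tested. Pla2g5, left out of the members, differed there as well, and earlier results of these data were known.

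The genotype labels were checked on Yap1, whose first exons summed to 8.86, 8.68 and 8.33 FPKM in tKO libraries, 26.4, 25.2 and 27.9 FPKM in dKO libraries and 23.2, 25.2 and 26.9 FPKM in WT libraries. Stk4 averaged 8.92 ± 0.826 FPKM in tKO libraries, 8.57 ± 1.24 FPKM in dKO libraries and 9.83 ± 0.817 FPKM in WT libraries (SD, n = 3 each), and Stk3 overlapped between the groups as well, so these sums do not check the Mst1/2 deletion. All 6 principal cell markers of the initial segment were listed, and their summed level was 15400 to 19300 FPKM in tKO libraries, 15000 to 16400 FPKM in dKO libraries and 23900 to 25400 FPKM in WT libraries. More events were listed in tKO libraries (39797 to 43149) than in dKO (37629 to 38373) or WT libraries (37862 to 39220), and among the members the numbers were 722 to 783 in tKO, 674 to 694 in dKO and 664 to 687 in WT libraries. Library tKO replicate 2 had the most in both counts.

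The left-out genes had the following values. The last exon of Cep85 (a centrosomal protein) had 160, 254 and 110 FPKM in tKO libraries and was listed in none of the dKO and WT libraries. The first exons of Pla2g5, a secreted phospholipase A2, summed to 10.6, 5.75 and 10.9 FPKM in tKO libraries, 5.002, 5.591 and 4.775 FPKM in dKO libraries and 40.9, 49.4 and 34.7 FPKM in WT libraries. Both mutant groups lay below WT for Pla2g5, while Cep85 set tKO apart from both.

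The promoters of 4 members are shown as examples of the kinds of tKO value described below. Pnrc2 and Aldh4a1 had first exons listed in tKO libraries only, Cda was higher and Padi2 lower. Each sequence is the 250 bases before the RefSeq start site in build GRCm38.p6, 5′ to 3′ on the strand of the gene, minus for Pnrc2 and Cda and plus for Aldh4a1 and Padi2. Capitals mark the CCAAT box, searched as CCAAT or ATTGG and chosen after the sequences were seen; Cda has none.

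Pnrc2 chr4:135873847-135874096: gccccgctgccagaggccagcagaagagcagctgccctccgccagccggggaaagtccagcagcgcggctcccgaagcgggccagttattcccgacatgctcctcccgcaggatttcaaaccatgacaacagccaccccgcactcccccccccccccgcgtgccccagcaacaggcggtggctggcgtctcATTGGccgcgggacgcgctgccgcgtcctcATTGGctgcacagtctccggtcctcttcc
Aldh4a1 chr4:139622644-139622893: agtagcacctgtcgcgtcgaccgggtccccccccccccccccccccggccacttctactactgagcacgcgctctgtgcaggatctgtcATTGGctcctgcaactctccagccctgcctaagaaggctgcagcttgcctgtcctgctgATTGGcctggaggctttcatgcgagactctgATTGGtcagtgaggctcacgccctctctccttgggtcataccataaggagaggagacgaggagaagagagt
Cda chr4:138367956-138368205: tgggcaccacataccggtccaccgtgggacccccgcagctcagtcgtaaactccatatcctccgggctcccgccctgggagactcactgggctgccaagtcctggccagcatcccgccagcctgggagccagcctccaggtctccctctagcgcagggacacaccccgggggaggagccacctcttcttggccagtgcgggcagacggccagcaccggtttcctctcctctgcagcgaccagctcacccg
Padi2 chr4:140906110-140906359: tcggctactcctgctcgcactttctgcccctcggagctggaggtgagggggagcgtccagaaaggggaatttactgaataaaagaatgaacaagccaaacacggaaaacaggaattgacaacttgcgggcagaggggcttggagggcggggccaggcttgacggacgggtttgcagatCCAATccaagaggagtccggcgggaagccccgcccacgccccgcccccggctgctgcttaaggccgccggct

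The first exon of Pnrc2 that was listed in tKO libraries only begins at the RefSeq start site shown above, within 4 bases. The CCAAT letters occurred in 33.8% of all 32851 RefSeq promoters of this length and in 36.0% of 247 promoters of tested member genes (176 genes matched by symbol). The TEAD core GGAATG, on either strand, was in none of the 4 sequences, in 11.3% of the members' promoters and in 12.6% of all. The ETS core CCGGAAG, on either strand, was likewise in none of the 4, in 14.6% of the members' promoters and in 6.91% of all. The members' set holds only genes that reached 1 FPKM in at least 3 libraries, and the set of all has no such limit. These shares therefore compare unlike sets. In 41 promoters of member genes with an event that set tKO outside the other 6 libraries, the shares were 29.3% (CCAAT), 14.6% (TEAD) and 2.44% (ETS).

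Of the 1052 members, 457 (43.4%) reached 1 FPKM in at least 3 libraries and are called tested events here, from 212 genes. In 31 of these genes a first-exon and a last-exon event had equal values in all 9 libraries, so that 1 difference can count as 2 events. In 48 of the tested events (10.5%) all 3 tKO libraries lay outside the range of the 6 dKO and WT libraries, 27 above it and 21 below. Over all 25042 tested events the share was 4.96% (2.94% above and 2.02% below), and nothing is read from the gap, because the rule used tKO values. On chromosome 4 before 134 Mb it was 43 of 1092 (3.94%), and on the other 19 chromosomes it ran between 3.57% on chromosome 19 and 6.46% on chromosome 17. The dKO libraries lay outside the other 6 in 42 of the 457 members (9.19%; background 9.96%), and in 10.6% of events before 134 Mb. The WT libraries did so in 28 members (6.13%; background 6.92%), against 5.95% before 134 Mb. Single libraries were also set against the other dKO and WT libraries (6 for a tKO library, 5 for the rest). The share of members at least 1 log2 unit outside that range was 3.28%, 5.69% and 2.84% in tKO libraries. It was 2.41%, 2.63% and 0.656% in dKO and 0.875%, 2.63% and 1.09% in WT libraries. On the other chromosomes these shares were 0.915%, 2.34% and 1.2%, then 0.949%, 1.16% and 1.04%, then 1.08%, 1.18% and 1.24%.

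A log2 difference of at least 1 between tKO libraries and the mean of the dKO and WT groups, on the log2(FPKM + 1) scale, was seen in 51 members (11.2%; background 4.42%), against 51 events (4.67%) before 134 Mb and 2.31% to 6.31% on the other chromosomes. Between dKO and WT libraries it was seen in 29 members (6.35%; background 6.17%), against 5.77% before 134 Mb. The median log2 difference of tKO was 0.03 in the segment and 0.04 before it, so the members as a whole were neither higher nor lower, and the median size of the difference, sign ignored, was 0.21 in the segment and 0.16 before it.

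One library weighed on the count of separated events. Without tKO replicate 1, the remaining tKO libraries stood outside the other 6 in 15.4% of members, in 14.8% of events before 134 Mb and in 13.7% on the other chromosomes, so that the gap was nearly gone. Without tKO replicate 2 these shares were 13.6%, 8.36% and 8.76%, and without tKO replicate 3 they were 16.8%, 10.6% and 9.85%. For a log2 difference of at least 1 the shares in the same 3 regions were 11.8%, 7.36% and 6.25% without tKO replicate 1, 9.89%, 4.7% and 4.31% without tKO replicate 2, and 12.0%, 5.81% and 5.14% without tKO replicate 3.

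**Figure D1:**
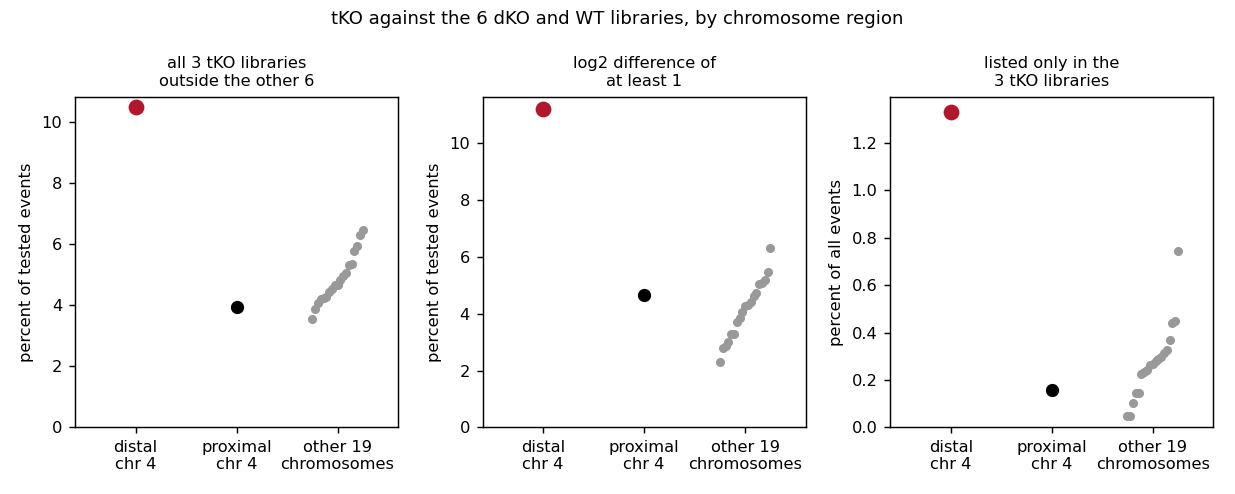
Percent of tested events in which all 3 tKO libraries lay outside the other 6 (left), percent with a log2 difference of at least 1 (middle) and percent of all events listed in the 3 tKO libraries only (right). The red point is distal chromosome 4 (10.5%, 11.2% and 1.33%), the black point the same chromosome before 134 Mb (3.94%, 4.67% and 0.157%), and each grey point 1 of the 19 other chromosomes, ordered by value.

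In bins of 4 Mb, tKO libraries stood apart in 7.63% of 118 tested events in the first bin, in 15.6% of 90 in the next, in 20.8% of 24 in the one after and in 19.7% of 66 in the bin that ends at 150 Mb. Beyond 150 Mb the shares were 3.28% of 61 and 5.1% of 98 events. The last bin before the segment had 4.76% of 105. The dKO libraries stood apart in 13, 7, 6, 5, 8 and 3 of the events in the same 6 bins. In the bin of 24 events, which had the highest tKO share of the segment, dKO stood apart more often (6 events) than tKO (5 events). Among the 19 bins before 134 Mb with at least 20 tested events the shares had a median of 2.99% and ran between 0 and that of the bin between 14 and 18 Mb, with 4 of its 20 events.

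**Figure D2:**
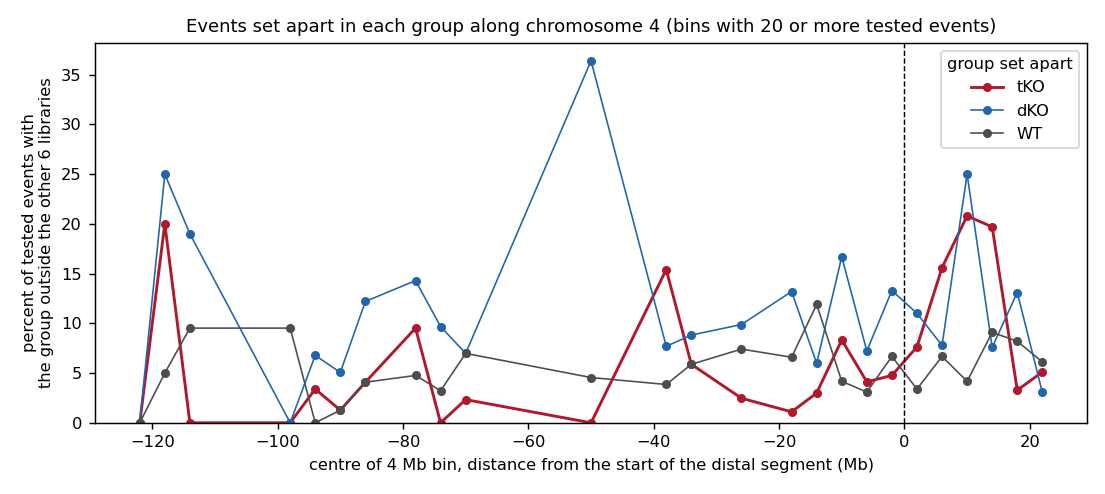
Percent of tested events in which each group lay outside the other 6 libraries, in 4 Mb bins along chromosome 4, against the distance of the bin from the start of the segment (dashed line) in Mb. The tKO line (red) stands at 15.6%, 20.8% and 19.7% in 3 neighbouring bins of the segment and at 3.28% and 5.1% in its last 2, and the dKO line (blue) lies above it in the middle one of the 3. WT is grey.

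At the genes on either side of 134 Mb the tKO libraries overlapped with the others. Just inside, Dhdds averaged 6.99 ± 2.16 FPKM in tKO libraries, 7.07 ± 3.01 FPKM in dKO libraries and 9.34 ± 0.583 FPKM in WT libraries, and Ubxn11 averaged 5.69 ± 3.33, 3.46 ± 0.701 and 4.81 ± 2.58 FPKM in tKO, dKO and WT libraries. Sh3bgrl3, the next inside, averaged 60.4 ± 20.9 FPKM in tKO libraries, 38.9 ± 5.06 FPKM in dKO libraries and 47.7 ± 3.21 FPKM in WT libraries. Just outside, Hmgn2, a nucleosome-binding protein, averaged 37.6 ± 42.1 FPKM in tKO libraries, with 84.4 FPKM in replicate 2 alone, 9.65 ± 11.8 FPKM in dKO libraries and 4.71 ± 2.34 FPKM in WT libraries. Rps6ka1, a kinase, averaged 4.50 ± 1.07, 4.53 ± 0.812 and 3.96 ± 0.401 FPKM in tKO, dKO and WT libraries (SD, n = 3 in each case), and Arid1a, a chromatin remodelling subunit, overlapped between all groups.

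**Figure D3:**
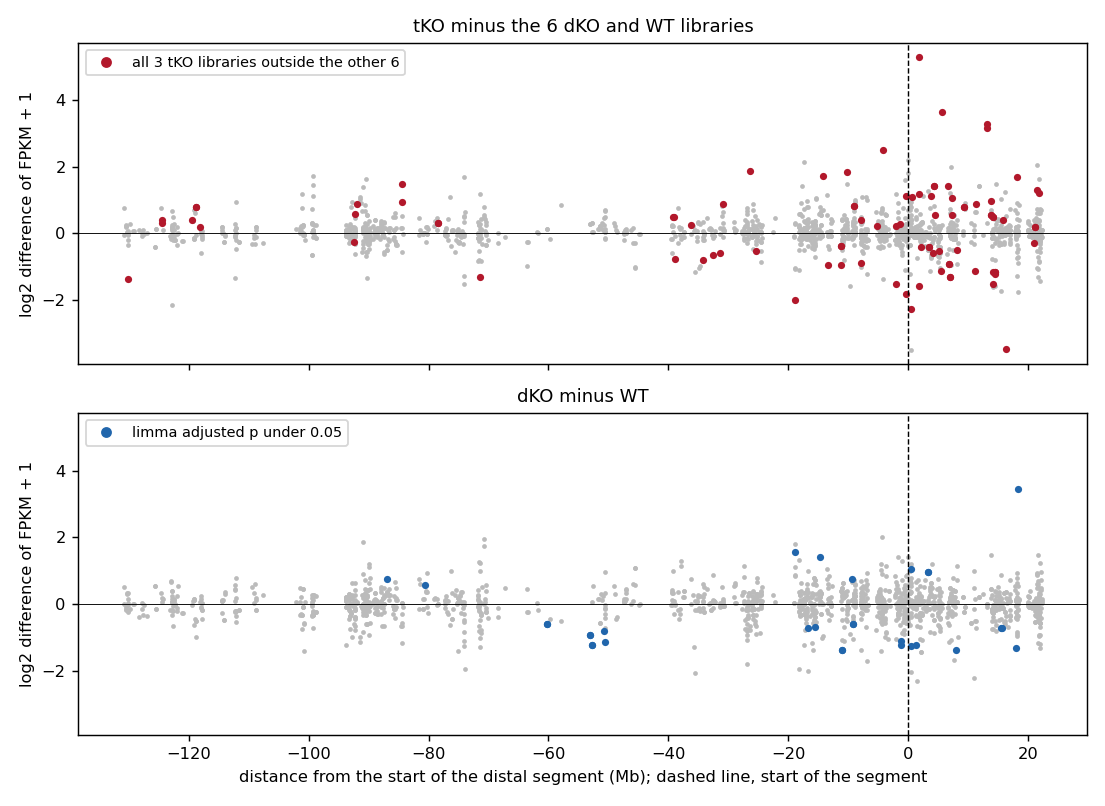
Log2 difference of each tested event on chromosome 4 against its distance from the start of the segment (dashed line) in Mb, for tKO minus the 6 dKO and WT libraries (upper) and dKO minus WT (lower). Red points are events in which all 3 tKO libraries lay outside the other 6 (48 in the segment, 43 before it), blue points events past the limma test between dKO and WT (10 and 21), and grey points the rest.

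Of all 1052 members, 14 (1.33%) were listed in the 3 tKO libraries and in none of the other 6, against 0.294% of all events and 4 of 2553 (0.157%) before 134 Mb. On the other chromosomes the share ran between 0.0484% on chromosome 14 and 0.744% on chromosome 17. By the same count 1 member was listed in dKO libraries only and 0 in WT libraries only, against 0.079% and 0.0635% of all events. Only 4 of the 14 reached 1 FPKM in all 3 tKO libraries, and the other 10 include minor ends of Atp13a2, Crocc, Per3, Phf13 and Fbxo6 whose genes were listed in all libraries by other exons.

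Pnrc2, a cofactor of nuclear receptors that also takes part in mRNA decay, had 2 first exons on the minus strand, both annotated. The upstream one (chr4:135873674-135873850) had 35.9, 39.4 and 38.9 FPKM in tKO libraries and was listed in no dKO or WT library. The downstream one (chr4:135873277-135873570) had 5.97, 4.29 and 6.90 FPKM in tKO libraries, 9.78, 19.7 and 22.05 FPKM in dKO libraries and 22.1, 21.3 and 21.9 FPKM in WT libraries. The 2 first exons thus differed in opposite directions in tKO libraries, which overlapped with neither other group. Their shared last exon had 41.9, 43.7 and 45.8 FPKM in tKO libraries, against 9.78, 19.7 and 22.05 FPKM in dKO libraries and 22.1, 21.3 and 21.9 FPKM in WT libraries, a log2 difference of 1.17 (SE 0.22) for tKO against the other groups. The last-exon value is the sum of the 2 first exons, so both would share an error if a 0 at the upstream exon were a failed estimate, which was not tested.

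Aldh4a1, a mitochondrial enzyme of proline breakdown, had its annotated first exon (chr4:139622866-139623197, plus strand) at 13.1, 13.0 and 9.09 FPKM in tKO libraries and listed in no other library. Among events of other kinds at the same locus, the highest value in each library was taken. It was 13.06, 12.65 and 9.006 FPKM in tKO libraries, 11.37, 10.4 and 13.48 FPKM in dKO libraries and 14.29, 15.8 and 15.66 FPKM in WT libraries. An event further along marked an intron (chr4:139633808-139633897) as spliced out, not as retained. It had 13.06, 12.65 and 9.006 FPKM in tKO libraries and 0 in all dKO and WT libraries. The locus was therefore read in all 9 libraries, at overlapping levels in tKO and dKO. Both this first exon and this intron event were listed in tKO libraries only. The deposited tables assign this locus to Tas1r2, a taste receptor gene next to it.

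The locus XLOC_053106, with no gene name of its own, lay on the plus strand inside the span of the lincRNA Gm26624 and opposite the lincRNA C230088H06Rik. Its first exon had 17.1, 6.82 and 5.63 FPKM in tKO libraries and its last exon 17.1, 6.11 and 4.60 FPKM, and neither was listed in a dKO or WT library by any event. Reads of near-identical copies cannot be separated in these tables.

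Cda, cytidine deaminase of pyrimidine salvage, had 5.30, 8.63 and 5.60 FPKM in tKO libraries, 1.04, 1.34 and 1.57 FPKM in dKO libraries and 2.32, 2.37 and 2.01 FPKM in WT libraries, with equal values for its first and last exon. All tKO libraries were above all others, by a log2 difference of 1.43 (SE 0.17). Pdpn, a mucin-type membrane glycoprotein, had 16.2, 9.64 and 9.59 FPKM in tKO libraries, 5.91, 5.42 and 5.51 FPKM in dKO libraries and 6.03, 7.68 and 6.89 FPKM in WT libraries. Its tKO libraries were also above all others, by 0.79 (SE 0.17), and replicate 1 was the highest. Pdpn is expressed by several stromal cell types. All 4 fibroblast markers were listed, at a summed 531 to 911 FPKM in tKO libraries, 418 to 459 FPKM in dKO libraries and 366 to 522 FPKM in WT libraries. Their part in its level was not tested.

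Higher tKO values without overlap were also seen in 3 genes close together and in Camk2n1. Miip, an inhibitor of cell migration, had first-exon values of 3.94, 4.79 and 3.53 FPKM in tKO libraries, 1.66, 1.59 and 2.02 FPKM in dKO libraries and 1.17, 2.03 and 1.21 FPKM in WT libraries. Agtrap, which binds the angiotensin II receptor, had 11.9, 9.86 and 9.04 FPKM in tKO libraries, 5.73, 6.37 and 6.56 FPKM in dKO libraries and 7.34, 8.19 and 7.66 FPKM in WT libraries. Zfp933, a zinc finger gene, had 4.04, 3.50 and 3.33 FPKM in tKO libraries, 2.64, 2.68 and 2.68 FPKM in dKO libraries and 1.84, 1.70 and 1.56 FPKM in WT libraries. The dKO libraries lay between the others. Camk2n1, an inhibitor of calmodulin-dependent kinase II, had 8.97, 10.6 and 14.3 FPKM at its first exon in tKO libraries, 8.49, 6.75 and 8.68 FPKM in dKO libraries and 7.61, 6.12 and 5.93 FPKM in WT libraries. Its lowest tKO value was close to the highest of dKO.

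Next to these, Fbxo6 and Angptl7 were lower in tKO libraries. Fbxo6, an F-box protein that recognises glycoproteins for ubiquitination, had 4.12, 2.02 and 3.69 FPKM at its last exon in tKO libraries, 7.56, 8.35 and 5.61 FPKM in dKO libraries and 10.8, 9.51 and 8.45 FPKM in WT libraries, a log2 difference of -1.15 (SE 0.19). Angptl7, a secreted angiopoietin-like protein, had 1.98, 1.49 and 0.86 FPKM in tKO libraries, 5.78, 5.25 and 2.996 FPKM in dKO libraries and 5.22, 4.51 and 2.87 FPKM in WT libraries, again by -1.15 (SE 0.25). Genes higher in tKO (Miip, Agtrap, Zfp933) and genes lower in tKO (Fbxo6, Angptl7) thus stood within the same bin of 4 Mb.

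Of the tested peptidylarginine deiminases, which turn arginine in proteins into citrulline, Padi2 and the first exon of Padi1 were lower in tKO libraries and Padi3 was not. Padi2 had 17.5, 5.50 and 6.64 FPKM in tKO libraries, 18.2, 23.4 and 22.1 FPKM in dKO libraries and 21.3, 25.6 and 28.7 FPKM in WT libraries, with a log2 difference of -1.30 (SE 0.31). The tKO libraries overlapped with neither other group, but tKO replicate 1 was within 1 FPKM of the lowest dKO library. Padi1 next to it had first-exon values of 1.62, 0 and 1.45 FPKM in tKO libraries, 2.11, 2.86 and 2.68 FPKM in dKO libraries and 2.174, 2.80 and 2.32 FPKM in WT libraries. Its last exons summed to 4.35, 2.25 and 4.74 FPKM in tKO libraries, 6.92, 7.01 and 4.29 FPKM in dKO libraries and 6.63, 8.92 and 9.14 FPKM in WT libraries. There tKO overlapped with dKO. Padi3, near the 1 FPKM limit, had 0.718, 1.03 and 0.635 FPKM in tKO libraries, 0, 1.15 and 0 FPKM in dKO libraries and 0.486, 1.17 and 1.52 FPKM in WT libraries.

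**Figure D4:**
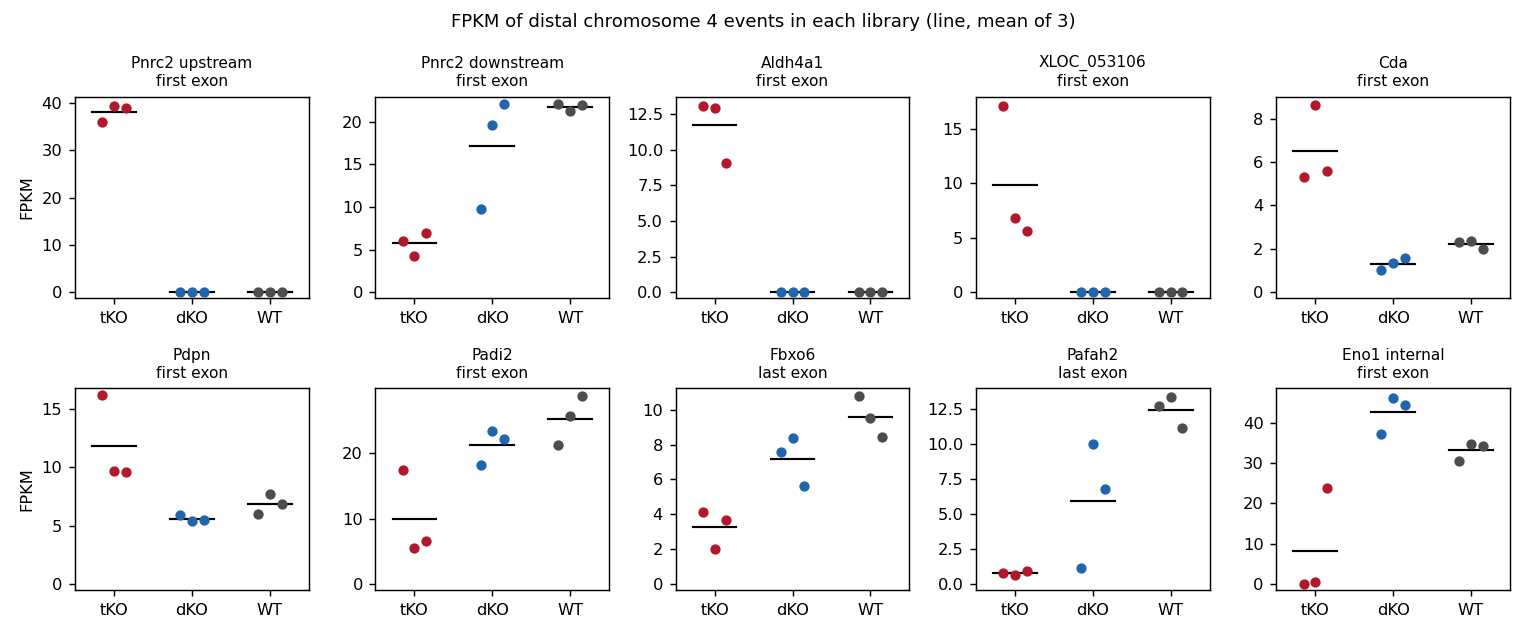
FPKM of 10 member events in each tKO (red), dKO (blue) and WT (grey) library, with the mean of 3 libraries as a line; each panel has its own scale from 0. The Pnrc2 upstream exon, the Aldh4a1 first exon and XLOC_053106 have points above 0 in tKO libraries only, while in the Pafah2 and Eno1 panels dKO replicate 1 and tKO replicate 3 stand away from the rest of their groups.

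Some separated members differed at 1 exon of a gene and not over the gene. Of the 31 genes with a separated event, first-exon and last-exon sums were both separated in 9 and neither was in 8. In 14 only 1 of the sums was separated, and 5 of these had no last-exon event to compare. Pafah2, an intracellular enzyme that degrades platelet-activating factor, had a short last exon (chr4:134405006-134405075) at 0.77, 0.64 and 0.96 FPKM in tKO libraries, 1.12, 9.98 and 6.76 FPKM in dKO libraries and 12.7, 13.3 and 11.1 FPKM in WT libraries. Beyond it, a Pafah2 event of the alternative exon end kind had 18.78, 19.57 and 19.89 FPKM in tKO libraries. That event had 15.03, 1.661 and 1.225 FPKM in dKO libraries and 4.98, 2.856 and 1.907 FPKM in WT libraries. The short end and the event beyond it thus ran in opposite directions, and dKO replicate 1 lay nearer to tKO than to the other dKO libraries in both.

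Eno1, the glycolytic enolase, was separated at an internal first exon (chr4:150247565-150247939), with 0.0909, 0.514 and 23.8 FPKM in tKO libraries, 37.3, 46.1 and 44.5 FPKM in dKO libraries and 30.6, 34.6 and 34.3 FPKM in WT libraries. The main first exon was at 56.2, 48.1 and 27.5 FPKM in tKO libraries, 22.9, 24.9 and 29.5 FPKM in dKO libraries and 34.3, 44.7 and 24.0 FPKM in WT libraries. The groups overlapped at the main exon, tKO replicate 3 was the odd one at both, and reads of Eno1 copies elsewhere in the genome make both values uncertain. Summed over all first exons, Eno1 had 57.8, 49.8 and 51.7 FPKM in tKO libraries, 60.2, 71.2 and 74.2 FPKM in dKO libraries and 65.3, 79.5 and 58.4 FPKM in WT libraries. That sum was thus separated as well, by a narrow margin, while the last-exon sum overlapped. Ubr4, a ubiquitin ligase, had a minor first exon at 2.39, 2.76 and 3.90 FPKM in tKO libraries, 8.79, 9.78 and 7.89 FPKM in dKO libraries and 4.12, 8.02 and 8.57 FPKM in WT libraries. Its first-exon sum overlapped with WT. Nbl1, an antagonist of bone morphogenetic proteins, had 18.2, 14.8 and 21.6 FPKM in tKO libraries, 32.7, 27.3 and 32.7 FPKM in dKO libraries and 23.6, 23.2 and 22.1 FPKM in WT libraries. WT replicate 3 was within 1 FPKM of the highest tKO library.

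Further separated members were a minor first exon of Acot7 (higher), the main first exon of Vps13d (lower) and a first exon of Tmem51 (lower). Acot7, an acyl-CoA thioesterase, had 3.94, 10.8 and 3.15 FPKM in tKO libraries, 1.30, 1.03 and 0.93 FPKM in dKO libraries and 2.96, 0 and 0.484 FPKM in WT libraries. Vps13d, a lipid transfer protein, had 8.99, 1.92 and 7.18 FPKM in tKO libraries, 12.2, 13.9 and 14.1 FPKM in dKO libraries and 12.4, 10.1 and 13.8 FPKM in WT libraries. Replicate 2 held the extreme tKO value in both, and in that library all first exons of Vps13d together came to 16.4 FPKM, above every other library. Among low members, Cfap74, a protein of motile cilia, had a first exon at 1.02, 4.14 and 1.97 FPKM in tKO libraries, 0.492, 0.0283 and 0.355 FPKM in dKO libraries and 0.117, 0.107 and 0.587 FPKM in WT libraries. All 4 markers of ciliated cells of the efferent ducts were listed, at a summed 26.5 to 67.4 FPKM in tKO libraries, 19.0 to 30.1 FPKM in dKO libraries and 19.0 to 21.3 FPKM in WT libraries. Their part in the level of Cfap74 was not tested.

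For gene sums, the first-exon or the last-exon events of a gene were summed, whichever class had the larger total. By these sums 20 of 219 tested genes in the segment (9.13%) had all tKO libraries outside the other 6, 13 above and 7 below. Before 134 Mb it was 29 of 542 (5.35%), and among all 12072 genes 5.25%. Aldh4a1 is among the 20 by its first exon alone. Events of other kinds, such as skipped exons and retained introns, stood apart in tKO in 45 of 734 tested in the segment (6.13%), 63 of 1461 (4.31%) before it and 3.92% on the other chromosomes.

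The comparison of dKO with WT libraries set the dKO label against WT where Yap1 RNA was at like levels, with the Mst1/2 deletion itself not checked by these tables. In limma with Benjamini-Hochberg adjustment over all 25042 tested events, 10 members passed an adjusted p of 0.05, 4 higher and 6 lower in dKO (2.19%; background 2.22%, with 0.723% higher and 1.5% lower). Before 134 Mb it was 21 of 1092 (1.92%). The 10 events belonged to 8 loci, and Wnt4 and Ctnnbip1 of the Wnt pathway gave 2 each.

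Wnt4, a secreted Wnt ligand, rose: it had 6.87, 6.65 and 6.62 FPKM in dKO libraries, against 3.53, 2.84 and 2.68 FPKM in WT libraries, a log2 difference of 0.95 (SE 0.15, limma adjusted p = 0.0256). The tKO libraries had 2.87, 2.347 and 3.59 FPKM, overlapping WT. Ctnnbip1, an inhibitor that keeps beta-catenin from its DNA-binding partners, fell: it had 11.8, 12.8 and 11.2 FPKM in dKO libraries, against 18.9, 20.6 and 21.8 FPKM in WT libraries, a log2 difference of -0.73 (SE 0.09, limma adjusted p = 0.00732). The tKO libraries, with 16.7, 17.3 and 17.1 FPKM, lay between the other groups without overlap. For Wnt4 the adjusted p reached 0.106 when 1 library was left out and it passed no longer in 5 of 9 such fits; for Ctnnbip1 the highest was 0.0416, so it passed in all 9.

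Stmn1, which takes microtubules apart, had 55.9, 60.4 and 81.1 FPKM in dKO libraries, against 33.8, 29.8 and 29.7 FPKM in WT libraries, a log2 difference of 1.04 (SE 0.20, limma adjusted p = 0.0467, lost in 7 of 9 fits without 1 library). The tKO libraries, with 37.6, 55.8 and 62.9 FPKM, lay above WT as well. Rpl22, a ribosomal protein, had a longer form of its first exon that was higher in dKO libraries, at 16.6, 13.7 and 4.33 FPKM in dKO libraries, against 0.0249, 0 and 0 FPKM in WT libraries and 0 in all 3 tKO libraries (limma adjusted p = 0.00705). Its usual first exon, which starts at the same base, had 29.1, 20.4 and 37.5 FPKM in dKO libraries and 28.6, 39.7 and 41.3 FPKM in WT libraries and overlapped.

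Members from 4 further loci fell in dKO libraries. The first exon of Pafah2 at chr4:134397276-134397586 had 4.77, 6.44 and 5.31 FPKM in dKO libraries, against 16.4, 16.3 and 11.03 FPKM in WT libraries. Its log2 difference was -1.25 (SE 0.17, limma adjusted p = 0.0146, lost in 3 of 9 fits without 1 library). The tKO libraries had 17.6, 17.5 and 14.5 FPKM. All first exons of Pafah2 together came to 19.6, 22.1 and 20.9 FPKM in tKO libraries, 18.1, 25.4 and 20.9 FPKM in dKO libraries and 42.6, 42.2 and 31.6 FPKM in WT libraries. Over the gene both mutant groups thus lay below WT (dKO against WT log2 -0.83, SE 0.15, limma adjusted p = 0.0227 over gene sums). The predicted gene Gm13053 had 11.03, 11.2 and 9.48 FPKM in dKO libraries, against 31.3, 32.4 and 24.5 FPKM in WT libraries, a log2 difference of -1.39 (SE 0.15, limma adjusted p = 0.00443), and 24.8, 18.3 and 20.6 FPKM in tKO libraries. Tas1r1, a taste receptor subunit, was listed at 0 in the 3 dKO libraries and at 1.31, 1.96 and 1.24 FPKM in WT libraries (limma adjusted p = 0.0256, lost without any of the dKO libraries). The unnamed locus XLOC_052893 fell by 1.24 on the log2 scale (limma adjusted p = 0.0453, lost in 8 of 9 fits without 1 library).

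**Figure D5:**
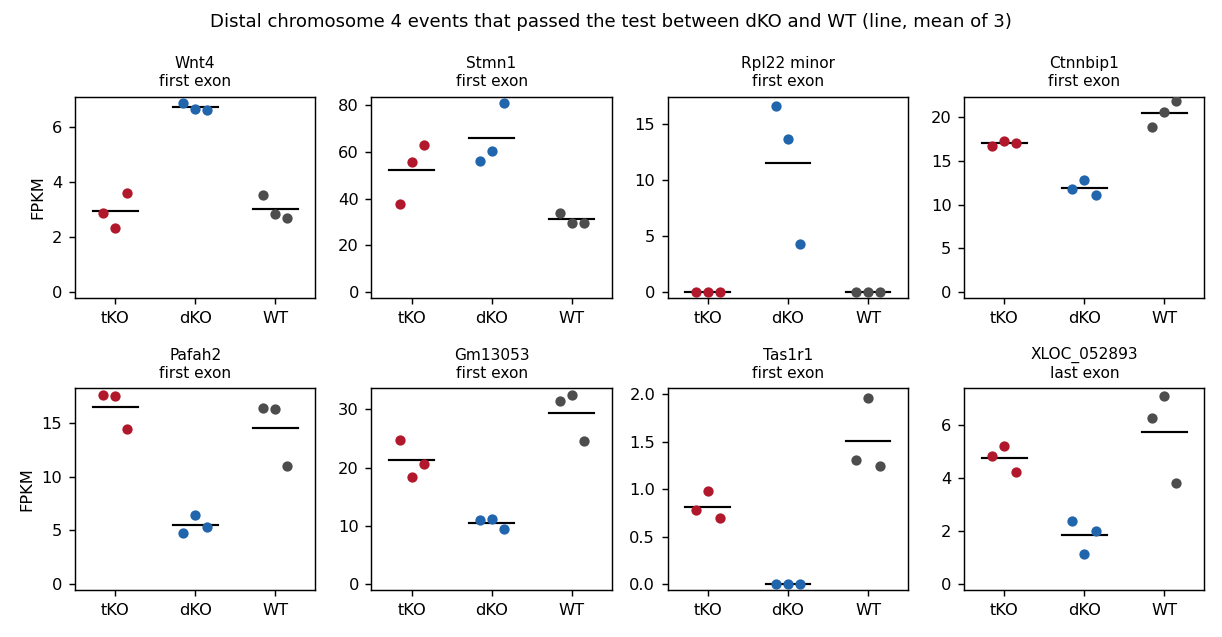
FPKM in each tKO (red), dKO (blue) and WT (grey) library of the member events that passed the limma test between dKO and WT, 1 panel per locus with its own scale from 0 and the mean of 3 libraries as a line. Wnt4, Stmn1 and the longer Rpl22 exon are higher in dKO than in WT libraries and the other 5 are lower, and the tKO libraries overlap WT in the Wnt4 panel.

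In tKO against the other groups the same fit called 20 members against dKO (background 1.51%), 5 against WT (background 0.192%) and 8 against both together (background 0.455%), and nothing is read from these counts, since tKO values chose the segment. Ece1, the endothelin-converting enzyme, was among the 20, with a last exon at 11.8, 11.04 and 9.20 FPKM in tKO libraries, 21.7, 20.03 and 19.4 FPKM in dKO libraries and 11.1, 16.7 and 15.4 FPKM in WT libraries. There dKO was the group that stood apart.

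Gene groups of the segment are given by gene sums. Over all 12072 gene sums the median log2 difference was 0.03 both for tKO against the other groups and for dKO against WT, and 3.78% passed the limma test in dKO against WT. The genes of complement C1q, a macrophage product, were tested in 3 of 3 cases and none passed in dKO against WT (medians 0.03 for tKO against the others and -0.16 for dKO against WT). C1qa averaged 13.2 ± 3.60 FPKM in tKO libraries, 13.2 ± 3.94 FPKM in dKO libraries and 14.5 ± 1.80 FPKM in WT libraries (SD, n = 3 each). Among growth and cell surface signalling genes, 10 of 14 were tested, with medians of -0.13 and 0.25, and 1, Wnt4, rose in dKO libraries. Among genes of actin and epithelial structure 10 of 11 were tested, with medians of 0.25 and 0.24, and 1, Stmn1, rose in dKO libraries. Espn, an actin-bundling protein, had 44.0, 21.7 and 21.2 FPKM in tKO libraries, 30.0, 26.4 and 30.7 FPKM in dKO libraries and 18.8, 15.99 and 21.7 FPKM in WT libraries. The dKO libraries lay above WT and tKO overlapped with both, and Espn did not pass the test between dKO and WT (limma adjusted p = 0.246).

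Mitochondrial proteins (11 of 13 tested), sugar metabolism (5 of 6), transcription factors and cofactors (10 of 21), RNA processing (7 of 9), ribosomal proteins (2 of 2), a mixed group listed as folate, lysine and vitamin enzymes (8 of 8, among them Miip, Agtrap and the chloride transporter Clcn6, which are no such enzymes), the TNF receptor family (3 of 7) and the interferon group (1 of 5) had no gene sum past the limma test between dKO and WT. Together with C1q these groups held 50 tested genes, of which 8 (16%) had an unadjusted p under 0.05 in that comparison, against 18.5% of all gene sums. Their median log2 differences for tKO against the others ran between -0.04 and 0.13. Pink1, the kinase that marks damaged mitochondria, had 39.9, 48.7 and 42.3 FPKM in tKO libraries, 34.6, 31.8 and 33.4 FPKM in dKO libraries and 43.3, 29.5 and 40.3 FPKM in WT libraries. Per3, a clock gene, had 6.47, 6.96 and 6.09 FPKM in tKO libraries, 6.06, 2.69 and 5.45 FPKM in dKO libraries and 3.21, 4.65 and 6.06 FPKM in WT libraries. Its tKO values were above all others by a narrow margin. Tnfrsf1b, a receptor for tumour necrosis factor, had 10.1, 7.84 and 6.90 FPKM in tKO libraries, 3.81, 3.47 and 4.73 FPKM in dKO libraries and 5.41, 7.13 and 5.70 FPKM in WT libraries. There dKO was lowest and tKO overlapped WT. Of the 5 genes of the secreted phospholipase A2 cluster other than Pla2g5, 2 had events and none was tested.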

How the data were processed

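RNA of 9 libraries was measured. Per the labels' protocols it was DNase-treated total RNA selected with oligo(dT). Per the submitters' processing notes, bcl2fastq 2.17.1.14 and DESeq were used; their roles are not stated, and the aligner or build is not given in the sources used here. Values as deposited are FPKM, per the file headers, 1 per transcript event, with events at 0 not listed, which were set to 0. Near-identical genes cannot be separated. Events were placed by splice sites of GENCODE M21 (GRCm38), which 80.0% of the members matched, or else in the gene the tables name on the same strand within 5000 bases; 116 stayed in no gene.

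Events that reached 1 FPKM in 3 or more libraries were fitted as log2(FPKM + 1) with limma 3.58.1 in R 4.3.3, all 3 groups in 1 model with a trended variance (6 residual degrees of freedom). Benjamini-Hochberg adjustment ran over the 25042 tested events. Fold changes on this scale understate those of low events. The comparison of tKO with the others set its mean against the mean of the dKO and WT means. On simulated data for that comparison with 24036 features, 50 of 99 changes of 1 and 86 of 99 changes of 2 on the log2 scale were recovered. A further 6 unchanged features were called. Changes were put only into events with a mean log2(FPKM + 1) above 1. The comparison of dKO with WT was not simulated, so these shares do not describe it.

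Members and gene lists were chosen with earlier results of these data known. Named events were those past a test, up to 10 highest and 10 lowest separated events with at least 5 FPKM, up to 4 genes a list, the 3 genes on each side of 134 Mb, the 5 highest genes and the targeted genes. Genes outside this rule (Padi1, Padi3, Zfp933, Camk2n1, Angptl7, Cfap74 and the minor ends listed in tKO only) were chosen after their values were seen. The alternatives were another pseudocount, filter and scaling, gene sums, a replicate block, fits of 2 groups and leaving out each library.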

Additional observations from a re-analysis of the deposited data

How the results depend on the processing

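No named difference or count changed direction under the settings run. The 10 members past the test in dKO against WT became 5 with the replicate block (1.09%, against 0.487% of all events) and 3 to 9 without 1 library (1.35% against 0.771% without WT replicate 3, 0.893% against 0.578% without WT replicate 2, 0.677% against 0.72% without dKO replicate 1). The 20 in tKO against dKO became 12 by gene sums, 10 with the replicate block, 13 in a fit of the 2 groups alone and 5 to 19 without 1 library. The 5 in tKO against WT became 1 with a filter of 5 FPKM, 1 by gene sums, 2 with the replicate block and 0 to 8 without 1 library (0 without tKO replicate 2, 8 without dKO replicate 1). The 8 in tKO against both became 2 with the filter of 5 FPKM, 4 by gene sums, 3 with the replicate block and 0 to 11 without 1 library. Events listed in 3 tKO libraries only fall under the filter once a tKO library is left out, which by construction lowers these counts; the cause of the other changes was not tested. The 48 separated members became 24 (9.8%) with the filter of 5 FPKM, 20 by gene sums and 54 to 73 without 1 library; the 43 before 134 Mb became 81 without a filter, 23 with the filter of 5 FPKM and 48 to 159 without 1 library. The 51 members with a log2 difference of at least 1 became 43 to 52, and the 14 listed in tKO only became 14 to 27, without 1 library, both chosen after seeing the data. Libraries of the same replicate number were not seen to vary together (correlations of -0.057 to 0.041, against -0.062 to 0.053 for other pairs). With 3 libraries per group this cannot exclude that the numbers pair the samples. Of 45 named differences, 43 stayed on their side of the threshold with a pseudocount of 0.1, 35 with the replicate block and 45 with upper-quartile scaling. Depth is unknown, so no counting error could be given.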

Other observations

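By gene sums, the most abundant genes of the segment did not follow the separated members. Cdc42, a small GTPase of cell polarity, had last exons summing to 124, 135 and 129 FPKM in tKO libraries, 144, 133 and 137 FPKM in dKO libraries and 149, 124 and 125 FPKM in WT libraries. Ddost, a subunit of the enzyme that glycosylates proteins in the endoplasmic reticulum, had first exons summing to 125, 111 and 100.4 FPKM in tKO libraries, 122, 134 and 133 FPKM in dKO libraries and 121, 111 and 103 FPKM in WT libraries. Akr7a5, an aldo-keto reductase, had 85.2, 68.7 and 66.1 FPKM in tKO libraries, 76.0, 99.9 and 77.2 FPKM in dKO libraries and 109, 118 and 111 FPKM in WT libraries, so WT stood above both mutant groups. The sums of Rpl11 and Rsrp1, the remaining of the 5 highest, overlapped between all groups, though Rpl11 had 1 separated event.

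First-exon use differed between libraries of 1 group at some members beyond 150 Mb, chosen after their values were seen. Nadk, the kinase that makes NADP, had an upstream first exon at 25.2, 26.2 and 0 FPKM in tKO libraries, 14.8, 0.619 and 0 FPKM in dKO libraries and 1.32, 0.234 and 0.351 FPKM in WT libraries. Its downstream first exon had 9.68, 6.35 and 27.8 FPKM in tKO libraries, 16.8, 28.4 and 26.2 FPKM in dKO libraries and 32.0, 31.0 and 24.8 FPKM in WT libraries, while the last exon had 34.6, 32.1 and 27.8 FPKM in tKO libraries, 31.6, 29.0 and 26.4 FPKM in dKO libraries and 33.5, 31.3 and 25.5 FPKM in WT libraries. Ube2j2, a ubiquitin-conjugating enzyme, had a first exon at 0.419, 0.664 and 14.4 FPKM in tKO libraries, 10.1, 0.518 and 11.3 FPKM in dKO libraries and 11.4, 12.6 and 13.4 FPKM in WT libraries. Dvl1, an adaptor of Wnt receptors, is given by the sum of its first exons, which does not show the use of a single exon. It had 12.5, 10.7 and 3.98 FPKM in tKO, 5.88, 9.70 and 10.9 FPKM in dKO and 10.6, 10.4 and 11.4 FPKM in WT libraries. Among tKO libraries replicate 3 was lowest for Dvl1 and highest for Ube2j2, while among dKO libraries replicate 3 was highest for both.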
